A study of Mus musculus with 9 samples.

Results

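The protocadherin genes were followed here in *HC11* cells, a line of mouse mammary epithelial cells, before and after the planar cell polarity gene *Vangl2* was targeted. They were taken as every row of the count table whose gene symbol begins with Pcdh, and 69 of 55228 rows met that rule. The family falls into 3 clusters of neighbouring genes, with 13 *Pcdha*, 22 *Pcdhb* and 22 *Pcdhg* members, and 12 single genes that lie apart from one another or from the clusters. RNA with a poly-A tail was sequenced from 9 cultures, 3 of each line. *WT* is the parental *HC11* population, which was not cloned. *KD1* and *KD2* are lines from the same population in which CRISPR/Cas9, with a different guide for each, was aimed at *Vangl2* together with a repair template carrying stop codons. Each of these lines was grown from a single colony, so that the effect of the edit and the history of the clone cannot be told apart. The labels call these lines knockouts, and the names used in the study are kept. All 9 cultures received no treatment and grew undifferentiated in medium with 10% serum, 5 µg/mL insulin and 10 ng/mL epidermal growth factor. Nothing in the labels says how far apart in time the cultures of a line were grown, so p-values measure the spread among these cultures.

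Protocadherins are the largest group of cadherins, calcium-dependent proteins of the cell surface through which cells adhere and recognise one another. In the clusters, each gene has a promoter of its own in front of a long variable exon that encodes the outer and membrane-spanning parts of the protein. *Pcdha* and *Pcdhg* variable exons are spliced to constant exons shared within the cluster, whereas each *Pcdhb* gene is complete in its own exon. Neurons switch on a few clustered genes per cell from a promoter choice that depends on CTCF, cohesin and DNA methylation, and the resulting surface identity lets branches of one neuron avoid each other. The single, or non-clustered, genes are divided into delta types by the motifs of their cytoplasmic tails, and several act in epithelia as well as in the nervous system. Levels of the whole family in a cloned mammary line show how far such genes differ between cell lines from one source.

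Total counts per culture ranged from 19231428 to 28360592, and 15253 genes passed the expression filter of edgeR. A count of 0 in a culture allows up to 3 counts, which was at most 0.154 CPM (counts scaled to library size) in any culture; these floors and the intervals below cover counting error only. One culture of *WT* and one of *KD2* stood apart from their own line. Over genes with at least 20 counts in a pair, the chi-square per degree of freedom was 14.5 and 11.9 for *WT* replicate 1 against replicates 2 and 3, beside 3.67 between those. It was 19.6 and 24.9 for *KD2* replicate 3 against replicates 1 and 2, beside 1.84 between those, and the *KD1* pairs lay between 1.42 and 1.91. Results are therefore also given without these cultures.

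*Vangl2* was counted 66, 99 and 86 times in *WT*, 75, 48 and 69 in *KD1*, and 90, 118 and 90 in *KD2*. Scaled for depth, every *KD1* culture lay below every *WT* culture and the *KD2* cultures overlapped them. By the quasi-likelihood test of edgeR, adjusted after Benjamini and Hochberg, *Vangl2* fell by 0.63 (SE 0.171, adjusted p = 0.0058) on the log2 scale in *KD1*. In *KD2* the log2 fold change was 0.05 (SE 0.162, adjusted p = 0.81 from edgeR). The test of *KD2* against *KD1* gave 0.68 (edgeR adjusted p = 0.0025). Counts over all exons do not show whether a stop codon was inserted, nor how much VANGL2 protein was made. By immunoblot, the study reported almost no VANGL2 protein in *KD1* and a strongly reduced amount in *KD2*.

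Markers of mammary epithelium were counted in all 3 lines, at levels that differed between them. Of 14 markers of mammary epithelium, 13 passed the filter, and their summed level was 6718 ± 311 CPM (SD, n = 3) in *WT*, 8153 ± 107 in *KD1* and 4092 ± 438 in *KD2*. The basal keratin *Krt5* was the most abundant of them in all lines, while *Krt19* had no count in any culture. Immune markers summed to at most 0.119 CPM in any line on average, with *Adgre1* at 0 in all 9 cultures.

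Across the family, 55 of the 69 genes had at least 1 count in some culture and 14 had none. The filter passed 25 of them, namely 0 of 13 *Pcdha*, 11 of 22 *Pcdhb*, 7 of 22 *Pcdhg* and 7 of 12 single genes. The 44 that did not pass reached at most 19 counts in a culture. A gene expressed in one line alone can pass through that line, so the counts below describe the 25 genes and are no measure of the family as a whole.

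Calls required an absolute log2 fold change above 1 and an adjusted p under 0.05. In *KD2* against *WT*, 16 of the 25 genes were called higher and 2 lower, where 14.5% and 6.71% of all genes tested were called higher and lower. Their median log2 fold change was 1.94, beside 0.01 over all genes tested, and 0.25 over the 9 members left by a filter of 10 counts in every culture. In *KD1* against *WT*, 4 were called higher and 8 lower, where 9.34% and 7.49% of all genes were, and the median was -0.40 beside -0.03. The 2 lines set against each other gave 15 genes higher and 1 lower in *KD2*, with 14.7% and 8.58% of all genes called, and a median of 1.97 beside 0.02. The comparisons of *KD1* and *KD2* with *WT* share the same 3 *WT* cultures.

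By the adjusted p alone, the rule used below for a single named gene, 19 of the 25 rose and 4 fell in *KD2*, beside 34.0% and 33.3% of all genes. In *KD1*, 5 rose and 11 fell, beside 26.9% and 30.0%. Set against *KD1*, 18 rose and 1 fell in *KD2*, beside 34.8% and 33.0%. Fits without one of the cultures that stood apart tested more members, 28 without *WT* replicate 1 and 27 without *KD2* replicate 3. In *KD2* they called 19 members higher and 2 lower without *WT* replicate 1, where 2394 of 15676 genes were higher and 1027 lower. Without *KD2* replicate 3 they called 18 and 2, where 2388 of 15597 genes were higher and 1014 lower. The 18 members called in *KD2* with all cultures were among those called in both fits. In *KD1* the counts were 4 higher and 8 lower without *WT* replicate 1, beside 1503 and 1128 of all genes, and 5 and 8 without *KD2* replicate 3, beside 1545 and 1162. Of the 12 members called in *KD1* with all cultures, 10 were among those of the first fit and 11 among those of the second.

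*Pcdhb* genes were the subgroup with the most calls in *KD2*, though not in *KD1*. The cluster lies on chromosome 18 of GRCm38, from 37264938 to 37524479. Its genes together were counted 147, 206 and 156 times in *WT*, 171, 130 and 123 in *KD1*, and 1067, 1311 and 749 in *KD2*. Scaled to CPM this was 7.80 ± 0.387 (SD, n = 3) in *WT*, 5.46 ± 0.741 in *KD1* and 41.2 ± 3.78 in *KD2*. Every *KD2* culture lay above, and every *KD1* culture below, all 3 *WT* cultures. The sum in *KD2* was 5.29 times that of *WT* and 7.54 times that of *KD1*, and no test was run on sums.

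*Pcdhb16* was the most abundant gene of the cluster in each line. It had 33, 50 and 45 counts in *WT*, 64, 40 and 39 in *KD1*, and 353, 413 and 245 in *KD2*. The *KD2* cultures were all far above the others, while *KD1* and *WT* overlapped. Its log2 fold change was 2.76 (SE 0.157, edgeR adjusted p = 3.3e-09) in *KD2* against *WT*, and -0.09 (SE 0.196, adjusted p = 0.71) in *KD1*.

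*Pcdhb17* came next, with 26, 33 and 25 counts in *WT*, 19, 20 and 23 in *KD1*, and 176, 251 and 141 in *KD2*. All 3 lines were separate, with *KD1* lowest and *KD2* highest. It rose by 2.53 on the log2 scale (SE 0.153, edgeR adjusted p = 6.1e-09) in *KD2* and fell by 0.68 (SE 0.208, adjusted p = 0.012) in *KD1*. *Pcdhb22*, the last gene of the cluster, had 20, 18 and 17 counts in *WT*, 17, 20 and 9 in *KD1*, and 117, 157 and 89 in *KD2*. Again the *KD2* cultures stood alone, and the log2 fold change there was 2.49 (SE 0.211, edgeR adjusted p = 1.8e-07).

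*Pcdhb18* had 13, 13 and 12 counts in *WT*, 8, 5 and 10 in *KD1*, and 95, 131 and 67 in *KD2*. It rose in *KD2* with a log2 fold change of 2.71 (SE 0.219, edgeR adjusted p = 1.1e-07), and in *KD1* the value was -0.96 (SE 0.336, adjusted p = 0.025). *Pcdhb14* had 3, 14 and 12 counts in *WT*, 3, 4 and 5 in *KD1*, and 75, 86 and 42 in *KD2*. One *WT* culture of *Pcdhb14* was as low as those of *KD1*, while *KD2* was above all of them. *Pcdhb15* was close to the floor in *WT*, at 0, 2 and 1 counts, and had 6, 3 and 2 in *KD1* and 20, 17 and 10 in *KD2*. From the summed counts its level in *KD2* was 13.6 times that in *WT*, with a 95% exact counting interval from 4.37 to 68.1.

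Of the 11 *Pcdhb* genes that passed the filter, 10 were called higher in *KD2* than in *WT*, where 14.5% of all genes were. Log2 fold changes of the 11 ran from 0.58 to 3.62, the last being that of *Pcdhb15*, which was fitted from 3 counts in *WT* and was 4.40 without *WT* replicate 2. The exception was *Pcdhb11*, with 3, 10 and 5 counts in *WT* and 11, 10 and 10 in *KD2*, where the edgeR adjusted p was 0.22. Set against *KD1*, all 11 were called higher in *KD2*, at 2.00 to 4.06. Genes low in *WT* and *KD1*, such as *Pcdhb7* and *Pcdhb15*, could pass the filter through *KD2* alone. Both counts therefore follow in part from the filter. With at least 10 counts in every culture only *Pcdhb16* and *Pcdhb17* were left, and the *KD2* medians were 2.72 against *WT* and 3.07 against *KD1*. The direction of the *Pcdhb* rise in *KD2* was the same under each scaling tried, with medians of 2.49, 2.50 and 2.60 with TMM, RLE and no factors.

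In *KD1* the summed level of the cluster was lower, and its genes were mixed. The median log2 fold change of its 11 genes was -0.68, with 3 called lower and 5 lower by the adjusted p alone, over a range of -2.01 to 1.52. *Pcdhb15*, at 1.52 (edgeR adjusted p = 0.12), was above *WT* in every *KD1* culture and ran from 1.03 without *KD1* replicate 1 to 2.30 without *WT* replicate 2, and *Pcdhb19* was at 0.45 (adjusted p = 0.33). *Pcdhb11*, at 2, 1 and 2 counts in *KD1*, fell by 2.01 (SE 0.570, edgeR adjusted p = 0.0081). *Pcdhb21* had 8, 13 and 10 counts in *WT*, 4, 7 and 3 in *KD1* and 47, 44 and 23 in *KD2*. It fell in *KD1* by 1.37 (SE 0.424, edgeR adjusted p = 0.013) and rose in *KD2* by 1.66 (SE 0.283, adjusted p = 0.00015). *Pcdhb14* was the other call, at -1.49 (SE 0.515, edgeR adjusted p = 0.024). These *KD1* calls rest on few counts. Without *WT* replicate 2 the edgeR adjusted p was 0.084 for *Pcdhb11*, 0.12 for *Pcdhb14* and 0.054 for *Pcdhb21*. *Pcdhb14* also lost its call without *WT* replicate 3 or *KD1* replicate 1 or 2 (0.056 to 0.10 over these from edgeR), and *Pcdhb21* without *KD1* replicate 1 or 3 (0.052 and 0.055). *Pcdhb17* lost its adjusted p without *KD1* replicate 1 (0.053 from edgeR), and *Pcdhb18* without *WT* replicate 1 or 3 or *KD1* replicate 1 or 2 (0.061 to 0.11).

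The counts were spread unevenly along the cluster. All 9 genes from *Pcdhb14* to *Pcdhb22* passed the filter, against 2 of the 13 from *Pcdhb1* to *Pcdhb13*, a split made after the values were seen. The first stretch of genes, *Pcdhb1* to *Pcdhb13*, summed to 1.25 ± 0.303 CPM (SD, n = 3) in *WT*, 0.400 ± 0.0447 in *KD1* and 2.12 ± 0.190 in *KD2*. The second stretch summed to 6.55 ± 0.0931 in *WT*, 5.06 ± 0.707 in *KD1* and 39.1 ± 3.61 in *KD2*. In *KD2* the first stretch was 1.70 times, and the second 5.97 times, the level of *WT*. *Pcdhb7* was the most abundant gene of the first stretch in *KD2*, at 17, 22 and 11 counts, against 1, 8 and 2 in *WT* and 2, 2 and 0 in *KD1*. Further genes of that stretch reached 10 counts in a culture without passing the filter. *Pcdhb5* had 4, 2 and 7 counts in *WT*, 3, 2 and 2 in *KD1* and 8, 11 and 5 in *KD2*. *Pcdhb9* had 3, 7 and 3 counts in *WT*, 3, 2 and 2 in *KD1* and 7, 13 and 5 in *KD2*.

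The shares of the leading genes moved by different amounts. *Pcdhb16* took 25.2% ± 3.30 (SD, n = 3) of the cluster's counts in *WT*, 33.3% ± 3.60 in *KD1* and 32.4% ± 0.826 in *KD2*. *Pcdhb17* took 16.6% ± 0.961, 15.1% ± 3.80 and 18.2% ± 1.45, and *Pcdhb22* took 11.1% ± 2.44, 10.9% ± 4.12 and 11.6% ± 0.558. *Pcdhb21* went the other way, with 6.05% ± 0.533 in *WT*, 3.39% ± 1.73 in *KD1* and 3.61% ± 0.703 in *KD2*. *Pcdhb19* was at 6.96% ± 3.84 in *WT*, 13.3% ± 1.85 in *KD1* and 7.14% ± 0.885 in *KD2*. Per length of unshared exon, *Pcdhb16* was at 0.376 ± 0.0489 RPKM in *WT* and 2.56 ± 0.222 in *KD2*, above *Pcdhb17* at 0.277 ± 0.0131 and 1.60 ± 0.166. *Pcdhb21* and *Pcdhb22* overlap at their ends, and 50-base windows that also occur in other genes made up 11.3% and 8.48% of their exons, so reads there are uncertain between copies.

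**Figure D1:**
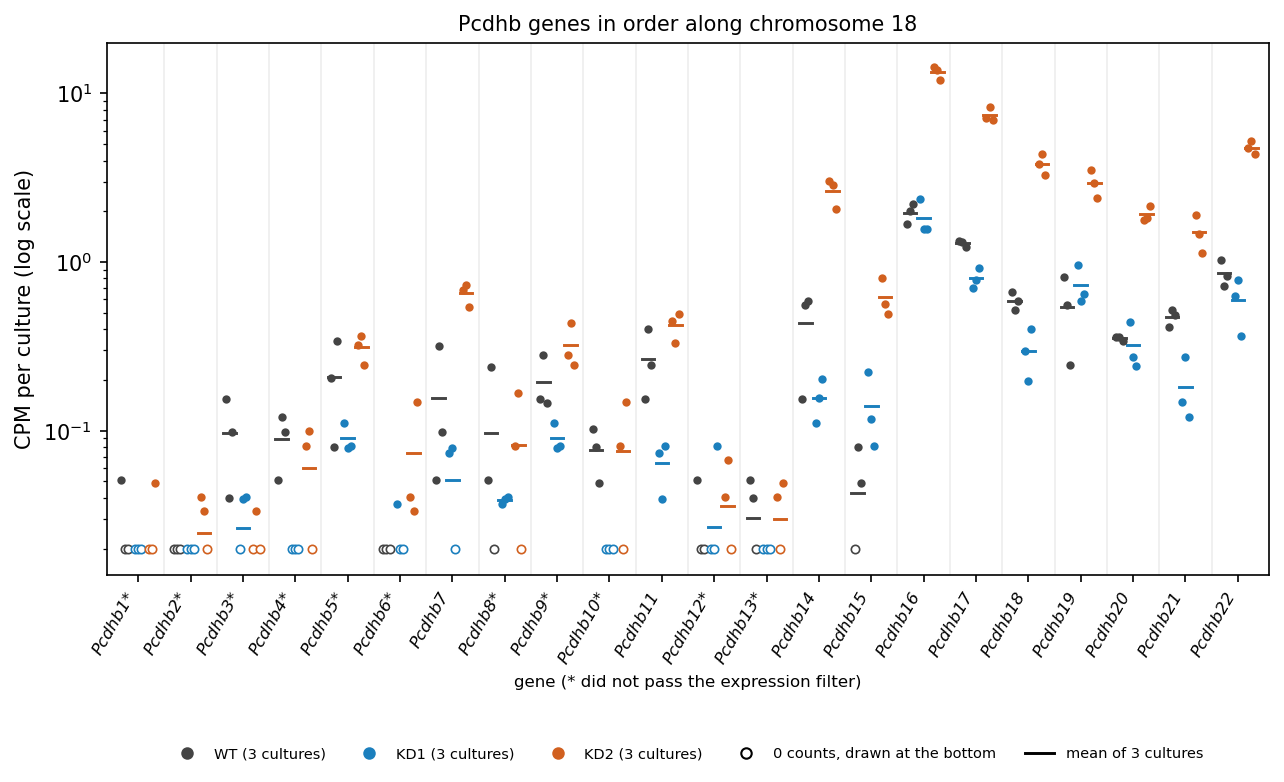
Level of each *Pcdhb* gene in each culture, in CPM on a log axis, with genes in order along chromosome 18. Filled points are the 3 cultures of each line, bars their mean, and open points cultures with 0 counts; from *Pcdhb14* to *Pcdhb22* every *KD2* culture lies above all *WT* and *KD1* cultures.

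The summed level of fibroblast markers was also highest in *KD2* and lowest in *KD1*, but its genes did not move as one. The 9 fibroblast markers summed to 20.2 ± 3.00 CPM (SD, n = 3) in *WT*, 9.14 ± 1.03 in *KD1* and 93.8 ± 5.42 in *KD2*. Of the 5 that passed the filter, 3 were called higher in *KD2*, where 14.5% of all genes were, and 4 lower in *KD1*, where 7.49% were. *Pdgfrb* was the most abundant of them in *KD2*, with 1572, 1929 and 1475 counts against 11, 22 and 21 in *WT* and 4, 5 and 2 in *KD1*. *Col1a1* was lower in *KD2*, at 4.38 CPM against 7.04 in *WT*, *Col3a1* was at 2.72 against 3.03, and *Pdgfra* did not fall in *KD1*, at 8.40 against 7.96. In the other line they went with the sum, *Col1a1* and *Col3a1* at 0.571 and 0.0131 CPM in *KD1*, and *Pdgfra* at 16.4 in *KD2*. *Col1a2* had the order of the sum, at 1.17 CPM in *WT*, 0 in *KD1* and 3.09 in *KD2*. *Dcn*, *Lum* and *Thy1* were at 0 in all *WT* cultures. In *KD2*, *Dcn* had 6, 3 and 0 counts, *Lum* 3, 3 and 3, and *Thy1* 0, 1 and 0. *Lum* and *Thy1* thus stayed within the floor of 3 counts there. The 10 neuron markers summed to 174 ± 3.51 CPM in *WT*, 71.5 ± 1.86 in *KD1* and 218 ± 36.0 in *KD2*. Most of this was *Map2*, at 157, 47.6 and 210 CPM. *Tubb3* ran the opposite way, at 16.7, 23.7 and 6.55 CPM. Of the 3 tested, 2 were called lower in *KD1* and 1 in *KD2*, where 7.49% and 6.71% of all genes were. Of the others, *Rbfox3*, *Snap25*, *Nefl* and *Nefm* were at 0 in all *WT* cultures and *Nefl* in all *KD2* cultures. The part of these markers in the *Pcdhb* levels was not tested. In RNA from whole cultures, a change in the number of expressing cells and a change in RNA per cell cannot be told apart.

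*Pcdhg* genes were counted mainly as 1 member. The cluster runs from 37661793 to 37841873 on chromosome 18, and *Pcdhgc3*, 1 of the C-type genes at its end, which are expressed widely rather than by choice in single neurons, took 94.2% ± 0.996 (SD, n = 3) of its counts in *WT*. Its share was 90.9% ± 0.889 in *KD1* and 83.3% ± 1.36 in *KD2*. *Pcdhgc3* had 580, 810 and 583 counts in *WT*, 999, 990 and 870 in *KD1*, and 904, 988 and 679 in *KD2*. After scaling, each *KD1* and each *KD2* culture lay above all *WT* cultures, by a small margin. It rose by 0.29 (SE 0.0729, edgeR adjusted p = 0.0037) on the log2 scale in *KD1*. In *KD2* the value was 0.18 (SE 0.0733, edgeR adjusted p = 0.042), which did not hold without *WT* replicate 1 or 3, any 1 *KD1* culture or *KD2* replicate 1. The edgeR adjusted p in those fits ran from 0.057 to 0.17, and the log2 fold change from 0.13 to 0.18. With only the 6 cultures of the comparison it was 0.19 (edgeR adjusted p = 0.070), and with no expression filter 0.15 (adjusted p = 0.18).

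The rest of the *Pcdhg* cluster was low in *WT* and higher in both lines. Without *Pcdhgc3* it summed to 1.84 ± 0.315 CPM (SD, n = 3) in *WT*, 3.70 ± 0.316 in *KD1* and 6.88 ± 0.458 in *KD2*. The 3 lines did not overlap, and the sums were 2.01 and 3.73 times that of *WT*. Of the 7 *Pcdhg* genes that passed the filter, 5 were called higher in *KD2*, and 2 higher and 1 lower in *KD1*. Of all genes, 14.5% were called higher in *KD2*, and 9.34% higher and 7.49% lower in *KD1*. Here too a gene low in *WT* and *KD1*, such as *Pcdhgb7*, could pass the filter through *KD2* alone.

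*Pcdhgb1* led this group in *KD1* and *KD2*. It had 5, 7 and 4 counts in *WT*, 23, 24 and 26 in *KD1*, and 29, 46 and 30 in *KD2*. Both lines were above *WT* in every culture, with a log2 fold change of 1.92 (SE 0.297, edgeR adjusted p = 7.9e-05) in *KD1* and 2.48 (SE 0.278, adjusted p = 2.8e-06) in *KD2*. *Pcdhgb2* had 1, 3 and 4 counts in *WT*, 10, 17 and 10 in *KD1*, and 15, 17 and 6 in *KD2*. It too rose in both, by 1.92 (SE 0.506, edgeR adjusted p = 0.0051) and 1.99 (SE 0.503, adjusted p = 0.0031).

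*Pcdhgb7* set the lines apart. Its counts were 2, 2 and 2 in *WT*, 1, 0 and 0 in *KD1*, and 10, 12 and 8 in *KD2*. It rose in *KD2* by 2.05 (SE 0.472, edgeR adjusted p = 0.0016). From summed counts, *KD2* was 30.9 times *KD1*, with a 95% exact counting interval from 5.13 to 1260. The lower call in *KD1*, at an edgeR adjusted p of 0.048, rests on 6 counts against 1 and was lost with DESeq2 (adjusted p = 0.095). With edgeR the call was lost under RLE factors (adjusted p = 0.05), the replicate block (0.06) and no expression filter (0.11). Leaving out 1 culture lost it too for each culture except *KD1* replicate 1, at edgeR adjusted p from 0.051 to 0.14.

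*Pcdhgc4*, another C-type gene, had 7, 8 and 5 counts in *WT*, 10, 13 and 10 in *KD1*, and 18, 21 and 19 in *KD2*. It rose in *KD2* by 1.32 (SE 0.300, edgeR adjusted p = 0.0015). *Pcdhgc5* had 10, 6 and 4 counts in *WT*, 17, 8 and 15 in *KD1*, and 19, 17 and 7 in *KD2*, and the lines overlapped. Its log2 fold change in *KD2* was 0.88 (SE 0.437, edgeR adjusted p = 0.091). It was 1.35 without *WT* replicate 1 and 1.11 without *KD2* replicate 3, both at an edgeR adjusted p of 0.031. *Pcdhgb8*, annotated as a polymorphic pseudogene, had 6, 5 and 2 counts in *WT*, 16, 4 and 7 in *KD1*, and 10, 20 and 12 in *KD2*. It rose in *KD2* by 1.46 (SE 0.500, edgeR adjusted p = 0.019), a call that was lost without *WT* replicate 2 or 3 or *KD2* replicate 2 (adjusted p from 0.055 to 0.077).

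**Figure D2:**
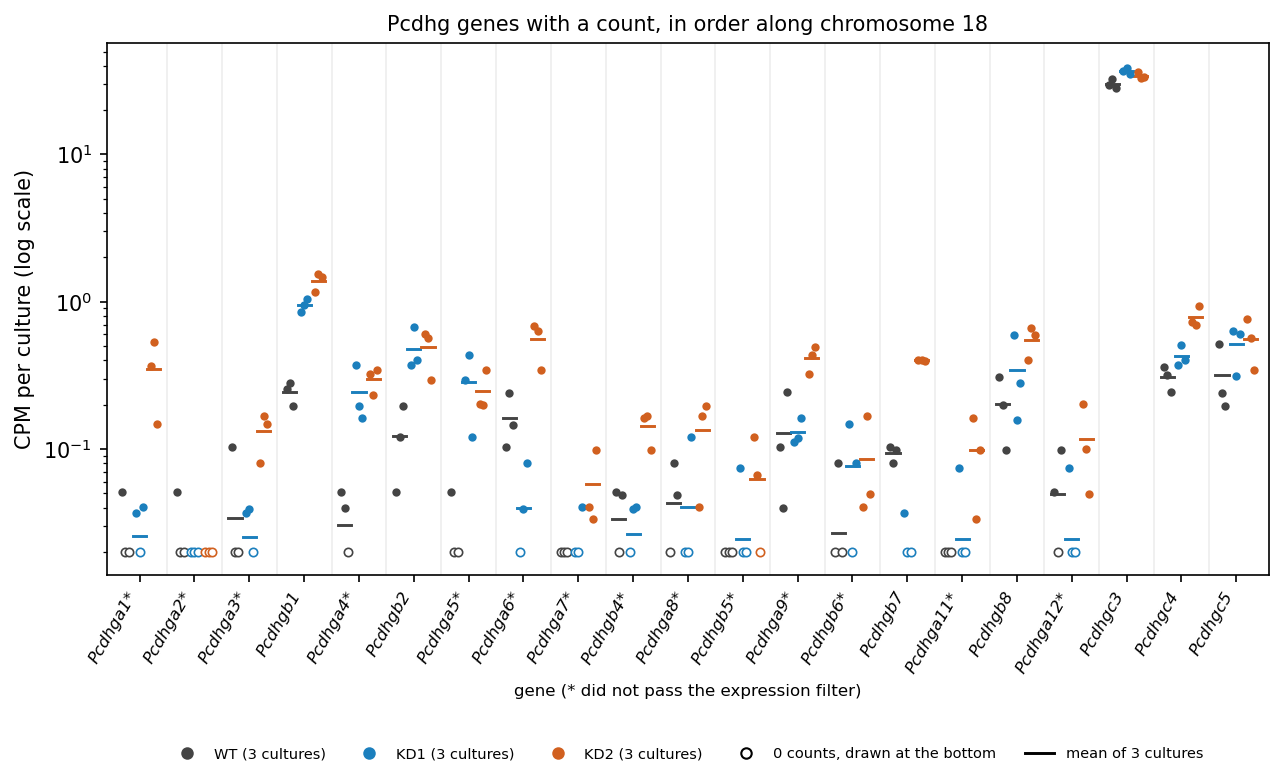
Level of each *Pcdhg* gene with a count in each culture, in CPM on a log axis, with genes in order along chromosome 18. Filled points are the 3 cultures of each line, bars their mean, and open points cultures with 0 counts; *Pcdhgc3* stands above the rest in all 9 cultures.

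Several A-type genes that did not pass the filter reached 10 counts in a culture. *Pcdhga1* had 1, 0 and 0 counts in *WT*, 1, 0 and 1 in *KD1*, and 9, 16 and 3 in *KD2*. By summed counts it was 24.2 times as high in *KD2* as in *WT*, with a 95% exact counting interval from 4.01 to 991. *Pcdhga6* had 2, 6 and 3 counts in *WT*, 0, 1 and 2 in *KD1*, and 17, 19 and 7 in *KD2*. Its level in *KD2* was 14.8 times that in *KD1*, with an interval from 4.72 to 74.4. *Pcdhga9* had 2, 1 and 5 counts in *WT*, 3, 3 and 4 in *KD1*, and 8, 13 and 10 in *KD2*.

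A pair of A-type genes was near the floor in *WT* and mostly above it in the other lines, apart from a *KD1* culture of *Pcdhga5* at the floor. *Pcdhga4* had 1, 1 and 0 counts in *WT*, 10, 5 and 4 in *KD1*, and 8, 7 and 7 in *KD2*. *Pcdhga5* had 1, 0 and 0 counts in *WT*, 8, 11 and 3 in *KD1*, and 5, 6 and 7 in *KD2*. The ratio of *KD1* to *WT* was 7.99 (95% exact counting interval 1.93 to 70.7) for *Pcdhga4* and 18.5 (2.99 to 763) for *Pcdhga5*.

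How the shared exons were treated limits what these counts mean. Reads over the constant exons belong to every gene of a cluster and cannot be assigned to 1 of them. *Pcdhga10*, of whose 4732 exon bases 0 lie outside other gene models on either strand, had 0 counts in all 9 cultures, and so did the read-through model *Gm42416*. *Pcdhgc3* is overlapped on the other strand by *BC037039*, which had 12 to 34 counts per culture. The strand setting of the counting was not given in the sources used here, so reads of that pair cannot be told apart.

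*Pcdha* genes were almost silent. The cluster, from 36930184 to 37187661 on chromosome 18, was counted 1, 0 and 1 times in *WT*, with 0 in each *KD1* culture, and 0, 0 and 3 in *KD2*. Only *Pcdha9* and *Pcdha11* had any count. No fold is given, since every line was at or under the floor of 3 counts per culture. The symbol *Pcdha11* covers 2 gene models.

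The single genes carried most of the family's counts. They summed to 229 ± 2.92 CPM (SD, n = 3) in *WT*, 282 ± 4.17 in *KD1* and 230 ± 4.30 in *KD2*. Of the 7 that passed the filter, *KD1* had 2 called higher and 4 lower, against 1 and 2 for *KD2*. The shares of all genes were 9.34% and 7.49% in *KD1*, and 14.5% and 6.71% in *KD2*. Between the lines, 3 were higher and 1 lower in *KD2*, where 14.7% and 8.58% of all genes were. The single genes moved in both directions within each line.

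*Pcdh7*, a delta-1 protocadherin on chromosome 5, showed the largest fitted change of the single genes in *KD2* against *KD1*. It had 556, 731 and 562 counts in *WT*, 4758, 4516 and 4297 in *KD1*, and 417, 573 and 342 in *KD2*. The 3 lines were fully separate, with *KD1* far above *WT* and *KD2* below it. It rose by 2.63 (SE 0.0646, edgeR adjusted p = 4.6e-13) on the log2 scale in *KD1* and fell by 0.69 (SE 0.0685, adjusted p = 8.8e-07) in *KD2*. The genes of chromosome 5 had a median log2 fold change of 0.01 in *KD1* and -0.20 in *KD2*.

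*Pcdh1*, a delta-1 protocadherin known from airway epithelium, lies on chromosome 18 beyond the clusters and was abundant in all lines. It had 1801, 2378 and 1895 counts in *WT*, 1873, 1851 and 1737 in *KD1*, and 2998, 3702 and 2670 in *KD2*. After scaling, the lines were separate, with *KD1* lowest and *KD2* highest. It fell by 0.40 (SE 0.0566, edgeR adjusted p = 3.4e-05) in *KD1* and rose by 0.42 (SE 0.0560, adjusted p = 1.3e-05) in *KD2*.

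*Pcdh18*, a delta-2 member on chromosome 3, had 1274, 1720 and 1356 counts in *WT*, 616, 590 and 604 in *KD1*, and 1227, 1532 and 889 in *KD2*. In CPM it was lower than *WT* in every culture of both lines. The log2 fold change was -1.51 (SE 0.0698, edgeR adjusted p = 3.0e-10) in *KD1* and -0.47 (SE 0.0666, adjusted p = 2.6e-05) in *KD2*.

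*Pcdh15*, which forms the tip links of sensory hair cells together with cadherin 23, had 51, 66 and 72 counts in *WT*, 15, 15 and 23 in *KD1*, and 18, 26 and 18 in *KD2*. Both lines were below *WT* and overlapped each other. It fell by 2.08 (SE 0.228, edgeR adjusted p = 3.0e-06) in *KD1* and by 1.81 (SE 0.223, adjusted p = 6.7e-06) in *KD2*. The test between the lines gave 0.26 (SE 0.274, edgeR adjusted p = 0.41).

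On the X chromosome, *Pcdh11x* and *Pcdh19* differed in their pattern. *Pcdh11x* had 478, 427 and 393 counts in *WT*, 68, 84 and 72 in *KD1*, and 171, 197 and 92 in *KD2*. Its level was lower than *WT* in all 6 cultures of the other lines, by 2.80 (SE 0.176, edgeR adjusted p = 8.4e-09) in *KD1* and by 1.73 (SE 0.160, adjusted p = 4.0e-07) in *KD2*. *Pcdh19*, a delta-2 member whose human counterpart is mutated in a female-limited epilepsy, had 338, 429 and 333 counts in *WT*, 202, 213 and 199 in *KD1*, and 792, 999 and 572 in *KD2*. Levels were lowest in *KD1* and highest in *KD2*, without overlap.

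The log2 fold change of *Pcdh19* was -1.09 (SE 0.0900, edgeR adjusted p = 1.6e-07) in *KD1* and 0.88 (SE 0.0807, adjusted p = 3.7e-07) in *KD2*. The 449 X-linked genes tested had a median of -0.09 in *KD1* and -0.63 in *KD2*. *Pcdh19* thus rose in *KD2* while X-linked genes were low there as a group, and the part of the chromosome in the *Pcdh11x* value was not tested.

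*Pcdh12*, known from vascular endothelium, was low throughout, with 1, 4 and 1 counts in *WT*, 12, 10 and 4 in *KD1*, and 14, 14 and 14 in *KD2*. Both lines exceeded *WT* in every culture after scaling, but *KD1* only barely. Its replicate 3 and *WT* replicate 2 each had 4 counts, at 0.161 and 0.160 CPM. The log2 fold change was 1.81 (SE 0.577, edgeR adjusted p = 0.016) in *KD1* and 2.54 (SE 0.521, adjusted p = 0.00065) in *KD2*. The *KD1* call was lost without *WT* replicate 1 or 3 or *KD1* replicate 1 (edgeR adjusted p from 0.057 to 0.070). Without *WT* replicate 2 the log2 fold changes of *Pcdh12* were 2.65 and 3.38, so their size depends on single cultures. Endothelial markers summed to 2.21 ± 0.246 CPM (SD, n = 3) in *WT*, 5.18 ± 0.316 in *KD1* and 1.85 ± 0.371 in *KD2*. *Pecam1* made up most of this in *WT* and *KD1*, at 2.16 and 4.91 CPM, and was at 0.919 in *KD2*. *Cdh5* went the other way in *KD2*, with 0, 0 and 1 counts in *WT*, 5, 7 and 5 in *KD1*, and 22, 24 and 7 in *KD2*, and *Tek* had 7, 8 and 2 there against 1, 1 and 0 in *WT*. The part of these markers in the *Pcdh12* values was not tested, and *Emcn* was at 0 in all 9 cultures.

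Of the 5 single genes that did not pass, *Pcdh17* had 3, 2 and 3 counts in *WT*, 9, 11 and 12 in *KD1*, and 0, 3 and 2 in *KD2*. Only its *KD1* cultures were above the floor. *Pcdh10* had 2, 1 and 4 counts in *WT*, 0 in each *KD1* culture, and 5, 4 and 8 in *KD2*. Against a floor of 3 counts over the *KD1* group, *Pcdh10* was at least 5.83-fold higher in *KD2*, and with counting error in both groups the lower limit of the 95% exact interval was 4.25. *Pcdh9* had at most 2 counts in a culture, and *Pcdh8* and *Pcdh20* had none.

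**Figure D3:**
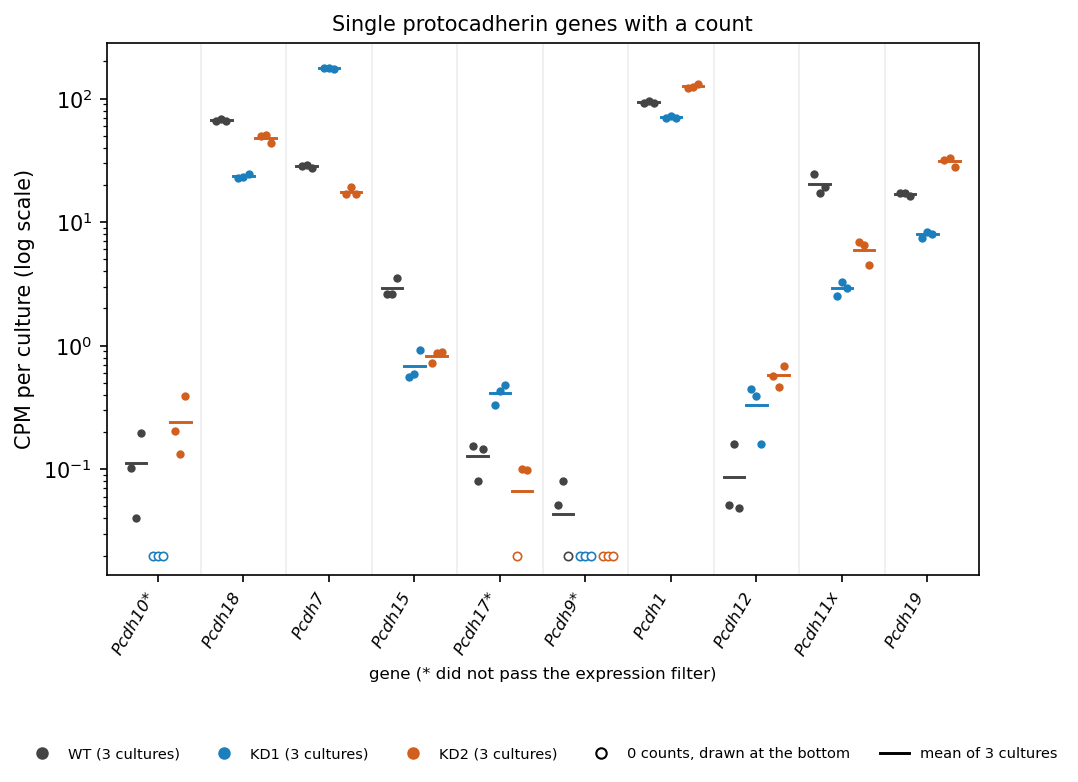
Level of each single protocadherin gene with a count in each culture, in CPM on a log axis. Filled points are the 3 cultures of each line, bars their mean, and open points cultures with 0 counts; *Pcdh7* was at 28.4, 176 and 17.6 CPM on average in *WT*, *KD1* and *KD2*.

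Levels of different genes were compared per length, as reads per kilobase of exon not shared with another gene, on the CPM scale (RPKM). In *WT* the highest level was that of *Pcdhgc3* at 16.6 ± 1.10 RPKM (SD, n = 3), followed by *Pcdh18* at 12.4 ± 0.342 and *Pcdh1* at 10.6 ± 0.180, and these did not overlap within 1 SD. *Pcdh7* followed at 3.39 ± 0.108, then *Pcdh19* at 1.63 ± 0.0547 and *Pcdh11x* at 1.45 ± 0.274, which did not differ beyond their spread. In *KD1* the order was led by *Pcdh7* at 21.0 ± 0.256 and *Pcdhgc3* at 20.3 ± 1.06, within 1 SD of each other. *Pcdh1* stood at 8.03 ± 0.215 and *Pcdh18* at 4.37 ± 0.156 in that line. In *KD2* it was led by *Pcdhgc3* at 18.8 ± 1.09, *Pcdh1* at 14.2 ± 0.611 and *Pcdh18* at 8.97 ± 0.718.

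The place of *Pcdhgc3* at the top depends on the length it is divided by. If exon bases overlapped from the other strand are counted in its length, its level was 8.93 ± 0.595 RPKM in *WT*, below *Pcdh18* and *Pcdh1*. In *KD1* it was then 10.9 ± 0.568, and *Pcdh7* 16.5 ± 0.202. In *KD2* it was 10.1 ± 0.585, below *Pcdh1*.

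Promoters are printed for 4 single genes that passed the filter and had an entry, because their levels moved in different directions. RefSeq's promoter table for GRCm38.p6 held 9 of the 69 members, and each entry runs from 250 bases before to 50 bases after an annotated start, 5′ to 3′ on the strand of the gene. The entry of *Pcdh15* lies inside its gene model, which begins at 73099342 on chromosome 10, so it belongs to an internal start. Capitals mark CG dinucleotides, the sites of DNA methylation. *Pcdh7* rose in *KD1* and fell in *KD2* (chr5:57717831-57718130, plus strand), *Pcdh18* and *Pcdh15* fell in both (chr3:49757267-49757566, minus strand, and chr10:73821617-73821916, plus strand), and *Pcdh19* fell in *KD1* and rose in *KD2* (chrX:133688944-133689243, minus strand).
Pcdh7: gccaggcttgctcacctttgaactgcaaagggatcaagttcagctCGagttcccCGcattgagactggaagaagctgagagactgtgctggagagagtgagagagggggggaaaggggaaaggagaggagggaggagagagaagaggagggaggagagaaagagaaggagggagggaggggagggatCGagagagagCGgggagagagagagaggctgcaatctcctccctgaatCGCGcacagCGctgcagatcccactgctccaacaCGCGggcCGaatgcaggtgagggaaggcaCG
Pcdh18: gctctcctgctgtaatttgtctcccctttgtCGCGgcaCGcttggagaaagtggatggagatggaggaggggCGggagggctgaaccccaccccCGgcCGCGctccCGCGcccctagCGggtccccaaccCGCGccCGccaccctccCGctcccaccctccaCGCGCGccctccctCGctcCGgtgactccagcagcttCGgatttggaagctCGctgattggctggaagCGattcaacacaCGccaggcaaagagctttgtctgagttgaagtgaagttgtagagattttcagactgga
Pcdh15: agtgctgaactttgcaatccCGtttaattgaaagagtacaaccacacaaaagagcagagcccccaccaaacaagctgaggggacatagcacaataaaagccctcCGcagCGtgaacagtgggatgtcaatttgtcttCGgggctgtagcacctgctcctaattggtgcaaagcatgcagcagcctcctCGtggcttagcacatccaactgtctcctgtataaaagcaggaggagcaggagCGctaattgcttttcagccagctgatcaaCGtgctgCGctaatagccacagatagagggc
Pcdh19: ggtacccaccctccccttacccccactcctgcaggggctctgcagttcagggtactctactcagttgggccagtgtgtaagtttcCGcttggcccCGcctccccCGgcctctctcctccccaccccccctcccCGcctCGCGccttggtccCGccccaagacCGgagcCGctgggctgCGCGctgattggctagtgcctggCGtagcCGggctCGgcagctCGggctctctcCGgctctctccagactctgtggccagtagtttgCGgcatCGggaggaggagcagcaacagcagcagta

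These promoters differed in base composition. That of *Pcdh18* held 23 CG dinucleotides, a number reached by 21.5% of the 32851 promoters of the same length in the table, whose median was 7. *Pcdh19* had 18 (reached by 29.7% of promoters), *Pcdh7* 11 (41.4%) and *Pcdh15* 8 (48.6%). The letters TATAAA, sought on both strands, were found in the entry of *Pcdh15* alone of the 4, starting at base 218 of the window, and in 13.6% of all promoters. No methylation or binding was measured here, and these counts describe the sequence alone.

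The genes beside and between the clusters were followed to see whether the change in *Pcdhb* reached them. Within the span of the clusters and 500 kb to either side, 64 other genes were in the table and 30 passed the filter. In *KD2*, 5 were called higher, where 14.5% of all genes were, with a median log2 fold change of 0.31, and the 370 genes tested on chromosome 18 had a median of 0.23. In *KD1*, 1 was called higher, where 9.34% of all genes were, with a median of 0.07. By the adjusted p alone, 17 of the 30 rose and 5 fell in *KD2*, beside 34.0% and 33.3% of all genes. In *KD1*, 7 rose and 7 fell by that rule, beside 26.9% and 30.0%. *Taf7*, a subunit of the general transcription factor TFIID that lies between *Pcdhb* and *Pcdhg*, was chosen after its values were seen. It had 214, 249 and 240 counts in *WT*, 192, 188 and 194 in *KD1*, and 403, 489 and 292 in *KD2*. It rose by 0.53 (SE 0.0924, edgeR adjusted p = 0.00017) in *KD2* and fell by 0.55 (SE 0.0985, adjusted p = 0.00030) in *KD1*, the same directions as the *Pcdhb* sum. The rise in *KD2* was smaller than that of the sum. In *KD1* the fall was 1.46-fold for *Taf7* and 1.43-fold for the sum.

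Beyond the *Pcdhg* end, *Diaph1*, also chosen after its values were seen, gave -0.09 (SE 0.0550, edgeR adjusted p = 0.18) in *KD2*. In *KD1* it rose by 0.27 (SE 0.0548, edgeR adjusted p = 0.00069), and *KD2* against *KD1* gave -0.36 (adjusted p = 4.6e-05). Farther out, *Arap3*, a GTPase-activating protein, had 5, 4 and 7 counts in *WT*, 2, 4 and 7 in *KD1*, and 43, 66 and 34 in *KD2*, a log2 fold change of 2.91 (SE 0.328, edgeR adjusted p = 2.9e-06) in *KD2*. On the *Pcdha* side, *Cd14*, a co-receptor for lipopolysaccharide, rose by 1.60 (SE 0.0983, edgeR adjusted p = 7.0e-09) in *KD2* and by 0.76 (SE 0.102, adjusted p = 2.2e-05) in *KD1*. *E230025N22Rik* had 1, 4 and 0 counts in *WT*, 4, 0 and 3 in *KD1*, and 20, 23 and 10 in *KD2*. It rose in *KD2* by 3.11 (SE 0.624, edgeR adjusted p = 0.00055), and by 4.57 (adjusted p = 0.00074) without *WT* replicate 2. *Hbegf*, an EGF-family ligand, rose by 2.14 (SE 0.0601, edgeR adjusted p = 1.7e-12) in *KD1* and by 0.30 (SE 0.0611, adjusted p = 0.00056) in *KD2*.

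Genes for promoter choice and silencing of the clusters, such as *Ctcf*, the cohesin subunits, *Smchd1* and the DNA methyltransferases, mostly changed by less than the threshold for a call. All 31 passed the filter, with medians of -0.22 in *KD1* and -0.28 in *KD2*. By the adjusted p alone, 16 fell and 3 rose in *KD1*, and 20 fell and 3 rose in *KD2*, beside the 30.0% and 33.3% of all genes that fell. *Ctcf*, chosen after its values were seen, fell by 0.63 (edgeR adjusted p = 6.2e-07) in *KD1* and by 0.78 (adjusted p = 6.3e-08) in *KD2*. In *KD1*, 2 were called lower, and in *KD2*, 1, where 7.49% and 6.71% of all genes were. *Tet1*, which oxidises methylated cytosine, had 202, 249 and 170 counts in *WT*, 22, 23 and 25 in *KD1*, and 127, 132 and 64 in *KD2*. It fell by 3.39 (SE 0.196, edgeR adjusted p = 3.5e-09) in *KD1* and by 1.16 (SE 0.156, adjusted p = 1.6e-05) in *KD2*. *Dnmt3b*, a methyltransferase that acts on unmethylated DNA, fell by 1.12 (SE 0.137, edgeR adjusted p = 9.1e-06) in *KD1* and by 0.71 (SE 0.133, adjusted p = 0.00033) in *KD2*.

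Of 30 genes for proteins that act on or with protocadherins, 28 passed the filter, and the calls were 1 up and 3 down for *KD1*, where 9.34% and 7.49% of all genes were called, and 2 up for *KD2*, where 14.5% were. *Cdh2*, or N-cadherin, which forms complexes with delta-2 protocadherins, had 463, 606 and 499 counts in *WT*, 8, 5 and 10 in *KD1*, and 4095, 5246 and 3218 in *KD2*. The lines did not overlap, and the log2 fold change was -6.32 (SE 0.139, edgeR adjusted p = 1.5e-13) in *KD1* and 2.79 (SE 0.0690, adjusted p = 1.5e-12) in *KD2*. *Ret*, a receptor kinase that phosphorylates clustered protocadherins, had 13, 13 and 11 counts in *WT*, 6, 6 and 2 in *KD1*, and 36, 36 and 29 in *KD2*. *Ret* was called in both lines, at -1.63 (SE 0.377, edgeR adjusted p = 0.0021) and 1.24 (SE 0.257, adjusted p = 0.00074). *Fyn*, a Src-family kinase, fell by 1.47 (SE 0.0817, edgeR adjusted p = 2.3e-09) in *KD1* and by 0.64 (SE 0.0795, adjusted p = 7.6e-06) in *KD2*. *Cyfip2*, of the WAVE complex that delta-2 members recruit, was at 1.59 (SE 0.339, edgeR adjusted p = 0.0011) in *KD1* and 0.82 (SE 0.378, adjusted p = 0.068) in *KD2*, and the latter was 1.07 (adjusted p = 0.023) without *KD2* replicate 1.

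Of 19 genes listed with the large atypical cadherins, among them the kinase *Fjx1*, which is no cadherin and was called higher in *KD1*, 8 passed the filter, and the calls were 2 up and 3 down for *KD1*, where 9.34% and 7.49% of all genes were called, and 2 up and 2 down for *KD2*, where 14.5% and 6.71% were. *Fat4* had 41, 79 and 47 counts in *WT*, 1, 4 and 2 in *KD1*, and 462, 515 and 346 in *KD2*. Its log2 fold change was -4.74 (SE 0.339, edgeR adjusted p = 3.5e-08) in *KD1* and 2.78 (SE 0.145, adjusted p = 1.4e-09) in *KD2*. *Fat2* went the other way, with 1000, 1679 and 1093 counts in *WT*, 5074, 4639 and 4690 in *KD1*, and 144, 177 and 93 in *KD2*. *Cdhr1*, a photoreceptor cadherin, was at -1.77 (SE 0.415, edgeR adjusted p = 0.0023) in *KD1* and 3.85 (SE 0.214, adjusted p = 2.7e-09) in *KD2*. Without *KD1* replicate 2 the *KD1* value was -2.53 for *Cdhr1* and -5.34 for *Fat4*. *Celsr1*, a planar cell polarity cadherin, fell by 1.44 (SE 0.143, edgeR adjusted p = 1.1e-06) in *KD1* and by 0.90 (SE 0.138, adjusted p = 5.4e-05) in *KD2*.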

How the data were processed

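The labels and columns named the line and replicate of each of the 9 cultures. Reads were trimmed with fastp, mapped to GRCm38 with HISAT2 and counted over exons per gene with featureCounts of Subread by the authors, and the raw counts were deposited without normalization. The sources used here did not give the strand setting or the treatment of reads that match several genes, which matters for genes that share exons.

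From these counts, edgeR 4.0.16 in R 4.3.3 fitted all 9 cultures together with TMM scaling, its expression filter and the quasi-likelihood test, without a block, with Benjamini-Hochberg adjustment across 15253 tested genes. The code was tested on simulated data. CPM and RPKM were computed here on TMM-adjusted library sizes, RPKM over exon bases not shared with other genes in GENCODE vM21 (GRCm38, a release other than that of the authors), in which all 69 members were found. The alternatives were DESeq2 1.42.0, RLE factors, library size alone, looser and stricter filters, the 6 cultures compared, a replicate block, and leaving out each culture.

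Named were all members that passed the filter, members with at least 10 counts in a culture, *Vangl2*, and from each other list up to 4 called genes with the largest change. *Taf7*, *Diaph1*, *Ctcf*, *Fjx1* and single genes with fewer counts were named besides, after their values were seen. The members and lists were chosen with earlier results of these data known.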

Additional observations from a re-analysis of the deposited data

Results flagged for a closer look

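Each difference below comes from the edgeR test of *KD2* against *KD1* with a log2 fold change beyond 1 in size and an adjusted p below 0.05, so that the 2 lines' differences from *WT* were themselves different. Values are log2 fold changes, positive where *KD2* was higher. Of the 40 tested genes named by the rule in the methods, 25 differed in this way, 16 of them protocadherins. Of all genes tested, 14.7% were higher and 8.58% lower by this rule. The other genes among the 40 were mostly picked for large changes, this comparison included, so their number follows in part from that choice.

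All 11 *Pcdhb* genes tested were among them, though some of these could pass the filter through *KD2* alone. The values were 3.55 for *Pcdhb7*, 2.59 for *Pcdhb11*, 4.06 for *Pcdhb14*, 2.10 for *Pcdhb15* and 2.86 for *Pcdhb16*. They were 3.22 for *Pcdhb17*, 3.67 for *Pcdhb18*, 2.00 for *Pcdhb19* and 2.55 for *Pcdhb20*. The last genes of the cluster gave 3.03 for *Pcdhb21* and 3.00 for *Pcdhb22*. In the *Pcdhg* cluster only *Pcdhgb7* differed by this rule, at 4.48, a fitted value that rests on 1 count in *KD1* and was 6.26 without *KD1* replicate 1. *Pcdhgb8* would join it without *KD1* replicate 1, at 1.32 (edgeR adjusted p = 0.025).

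Among single genes, *Pcdh7* was lower in *KD2* at -3.31, whereas *Pcdh18* was at 1.04, *Pcdh11x* at 1.06 and *Pcdh19* at 1.97. *Pcdh18* and *Pcdh11x* lie at the threshold: leaving out 1 culture gave 1.00 to 1.11 and 0.96 to 1.22, with *Pcdh11x* under 1 without *KD1* replicate 1 or *KD2* replicate 1 or 2. Of the 16 member calls, 14 were kept without *KD2* replicate 2, and 15 without *KD1* replicate 1 or *KD2* replicate 1. Outside the family, *Tet1* was at 2.23, *Cdh2* at 9.10, *Ret* at 2.86, *Fat4* at 7.52 and *Cdhr1* at 5.62, the last 2 at 8.12 and 6.38 without *KD1* replicate 2. *Fat2* was at -5.09. Of the genes around the clusters, *Arap3* was at 3.45, *E230025N22Rik* at 2.89 and *Hbegf* at -1.83. *Taf7*, named after its values were seen, was at 1.08 (edgeR adjusted p = 1.9e-07). Groups of 3 were not tested gene by gene for a stray culture.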

How the results depend on the processing

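No direction of a called value reversed under any alternative run. The 3 totals and their parts stayed within 1.5 times under DESeq2, RLE factors, library size alone and the replicate block. A filter of at least 10 counts in every culture left 9 members tested, and then 5 were called in *KD1* (1 higher, 4 lower), 4 in *KD2* (2 higher) and 6 between the lines (5 higher), because low genes were no longer tested. Of all 12296 genes tested under it, 766 were higher and 553 lower in *KD1*, 1173 and 525 in *KD2*, and 1181 and 733 between the lines. With only the 6 cultures compared, 15 members were tested in *KD1*, and 7 were called, 2 higher and 5 lower, beside 1396 and 965 of 14344 genes. With no expression filter 7 were called higher in *KD1* and 2 lower in *KD2* than in *KD1*, beside 1906 and 1801 of 31678 genes. Leaving out each culture in turn gave 5 to 8 lower calls in *KD1*, lowest without *WT* replicate 2, and 1 to 2 lower calls between the lines. The replicate block gave 11, 18 and 16 called members in the comparisons of *KD1* with *WT*, *KD2* with *WT* and *KD2* with *KD1*. Same-numbered cultures did not deviate together (mean r of 0.0012, from -0.065 to 0.079 over 9 pairs). With 3 cultures per line, this check cannot exclude that the numbers pair the cultures. Of the members' fold changes, 3 lost their adjusted p with DESeq2, 1 with RLE factors, 1 with the block, 1 with only the 6 cultures compared and 4 with no filter. Scaling by library size alone moved the median of all genes to 0.12 in *KD2* against *WT* and 0.14 against *KD1*, and the summed level of *Pcdhg* in *KD2* to 43.5 CPM. Depth limits most *Pcdhb* and *Pcdhg* genes in *WT* and *KD1*, which had under 20 counts per culture.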
